A study of Mus musculus with 12 samples.

Results

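The genes described here are 60 neighbours of Akp3 on mouse chromosome 1, from Epha4 on the centromeric side to Pam on the telomeric side. They were chosen by position, within about 20 Mb of Akp3, and each array probe was assigned to them through its RefSeq accession; the alkaline phosphatase genes at the locus itself were left out. The 60 genes stand among 22911 symbols with a probe on the array, and all 60 could be tested. A further 229 symbols of the same window were not among them, 140 of which could be tested.

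The arrays came from the jejunum of male mice, wild type or IAP knockout (Akp3-/-), that entered the experiment at 7 weeks of age. IAP is intestinal alkaline phosphatase, and Akp3 encodes a form of it made in the small intestine. Mice of each genotype took by mouth, once a day for 14 days, either vehicle alone, carboxymethylcellulose sodium salt in solution at 5 g/L, or that vehicle with IIAEK at 600 mg/kg body weight per day. IIAEK is a cholesterol-lowering pentapeptide, named for its amino acids in the single-letter code. For the IIAEK samples the source label states the duration in weeks, but their titles and protocol state days, which are used here. All mice were fasted for 8 h before collection. There were 4 groups of 3 arrays: each genotype on each treatment. Strain, breeding and the number of backcrosses were not given in the sources used here, nor whether wild-type mice were littermates of the knockouts.

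A gene is knocked out in mice by homologous recombination in embryonic stem cells, and the targeted allele is then carried into breeding. DNA on both sides of the allele is inherited with it until a crossover separates them, so a stretch of the stem cell strain's chromosome can stay around a targeted gene. Genes in such a stretch can differ between mutant and control animals whatever the deleted gene does, and a probe on an array can also read a sequence difference as a difference in signal.

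Levels are log2 processed signals on a scale whose 0 is the 75th percentile of each array, and differences are knockout minus wild type on the log2 scale. The 75th percentile lay between 410 and 578 signal units, and the share of spots well above background was 58.1% to 65.5%. Arrays of a group correlated across genes with r of 0.978 to 0.992, and arrays of different groups with r of 0.965 to 0.994. Slide 1 carried 2 wild-type and 4 knockout arrays, and slide 2 carried 4 and 2. P-values here measure the spread between these samples, and a difference in a whole tissue does not separate fewer cells of a type from less RNA per cell. Of the 60 genes, 55 were well above background on all 12 arrays. The other 5, Kcne4, B3gnt7, Efhd1, Glrp1 and Gpr35, were measured on part of them.

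Akp3 itself was checked first. It lay below background on all 6 knockout arrays, at -6.83 to -5.48, and also on wild-type vehicle replicate 3, at -5.94, while the other 5 wild-type arrays lay between -3.95 and -1.11. On IIAEK its signal was at least 7.66-fold lower in the knockout. The same calculation gave 3.13-fold over both treatments and 1.28-fold on vehicle. Those 2 values include the signal of wild-type vehicle replicate 3, itself below background, so they are not strict bounds. None of these values was tested. The limma fit of the measured signals gave an averaged difference of -3.04 (adjusted p = 0.216). The array labelled wild-type vehicle replicate 3 went against its label for Akp3, a dim gene. In Glrp1 (-4.47), Utp14b (-0.71), Ngef (2.85), Farp2 (0.97) and Mogat1 (-3.38) it lay on the wild-type side. The first 4 of these genes are among those with no overlap between the genotypes. The side of this array in them was therefore fixed and does not check its label. In Stk25 this array crossed a knockout array, at 3.92, and in Pam it came close to one, at -1.05. Without this array the averaged differences of these leading genes were -2.30 in Glrp1 (limma adjusted p = 0.013), 2.54 in Pam, -1.88 in Utp14b and -1.62 in Stk25. Those of Farp2, Mogat1 and Ngef were 0.43, 1.58 and -0.48. The neighbouring phosphatase genes Alppl2 and Alpi differed by -1.15 ± 0.22 (SE) and -0.72 ± 0.18, and neither passed (adjusted p = 0.262 and 0.535). These averages covered -0.28 on vehicle and -2.01 on IIAEK in Alppl2, and -0.30 and -1.14 in Alpi. Wild-type vehicle replicate 3 was the lowest wild-type array in both, at -3.03 in Alppl2 and 5.16 in Alpi, a bright gene. Both values lay within the knockout ranges, -3.55 to -2.63 in Alppl2 and 4.48 to 5.56 in Alpi. Why this array read so was not tested.

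Utp14b and Stk25 were measured more than 2-fold lower in the knockout, Pam and Mogat1 more than 2-fold higher, and most of the 60 genes differed little; of all genes tested, 0.414% had a measured difference over 2-fold. With both treatments averaged, 1 gene passed, Glrp1. It was below background on all 6 knockout arrays, which allows only a bound, at least 1.30-fold lower in the knockout. It was the only call among 27565 genes tested by limma at an adjusted p of 0.05, 0.00363% of them. Of these 27565, 15812 were named genes, and each of the others was a probe without a gene name, counted as a gene. At an unadjusted p of 0.05, 10 of the 60 genes were called, or 16.7%, beside 5.5% of all genes tested. Of these 10, Pam, Mogat1 and Farp2 were higher in the knockout, and Glrp1, Utp14b, Stk25, Ngef, Sh3bp4, Eif4e2 and Sgpp2 were lower. In 5 of the 60 genes (8.33%) the 6 knockout arrays did not overlap the 6 wild-type arrays, beside 0.367% of all genes. These were Glrp1, Utp14b and Ngef, lower in the knockout, and Pam and Farp2, higher in it. Only Pam among them had a second probe, which showed 0.14 with overlapping groups. Since the genes were chosen with earlier results of these data known, these shares describe the list and test nothing.

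On each treatment alone no gene of the 60, and none of all genes (0%), passed an adjusted p of 0.05. At an unadjusted p of 0.05 the limma fit called 16 of the 60 genes on vehicle (26.7%, beside 11.3% of all genes), 4 higher and 12 lower in the knockout. Among the lower genes were Glrp1, Kcne4 and Efhd1, above background on 0, 1 and 1 of 3 knockout arrays on vehicle. On IIAEK the fit called 12 (20%, beside 7.93% of all genes), 3 higher and 9 lower, Glrp1 again among the lower. The median difference of the 60 genes was -0.02 on vehicle, -0.07 on IIAEK and -0.06 with both averaged, beside -0.03, 0.03 and 0.00042 over all genes tested. With both averaged, 40 of the 60 lay below 0, and 51 differed by less than 0.5 in either direction.

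**Figure D1:**
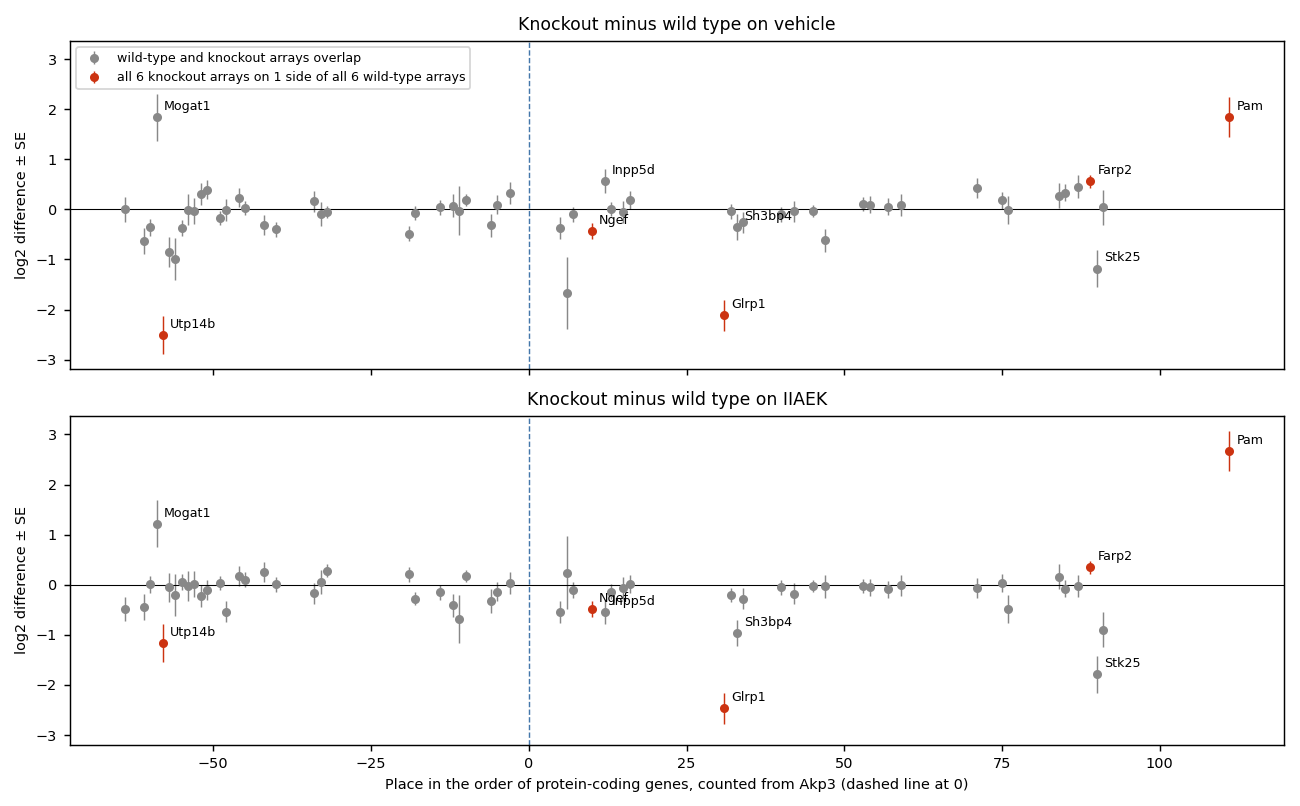
Knockout minus wild type (log2, limma SE as bars) for the 60 genes on vehicle (top) and on IIAEK (bottom), placed by their order among protein-coding genes counted from Akp3; red marks the 5 genes whose 6 knockout arrays do not overlap the 6 wild-type arrays. Utp14b, Stk25, Mogat1 and Pam stand more than 1 log2 unit from 0 on both treatments, as does Glrp1, whose knockout signals lay below background, with near-zero genes between them.

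The genes that differed most did not form a single block beside Akp3. Counted in protein-coding genes, Utp14b lay 58 places and Mogat1 59 places to the centromeric side, and Ngef 10, Glrp1 31, Farp2 89, Stk25 90 and Pam 111 places to the telomeric side. Of the 30 centromeric genes 3 had an unadjusted p under 0.05, and of the 30 telomeric genes 7, beside 5.5% of all genes tested. The sides were not compared by a test. The 4 nearest of the 60 genes on each side are given here, beside a median size of 0.104 over all genes. On the centromeric side Dis3l2, an RNA exonuclease 3 places away, differed by 0.18 ± 0.16 (SE), Cops7b, a subunit of the COP9 signalosome, by -0.02 ± 0.13, Pde6d, a carrier of prenylated proteins, by -0.32 ± 0.16, and the nucleolar protein nucleolin, Ncl, by 0.18 ± 0.09. On the telomeric side Eif4e2, a cap-binding repressor of translation 5 places away, differed by -0.46 ± 0.15. Its partner Gigyf2 differed by -0.10 ± 0.11. Efhd1, a mitochondrial calcium-binding protein 6 places away, differed by -0.71 ± 0.51, and Ngef by -0.46 ± 0.11 with no overlap between the genotypes. None of these 8 genes passed (limma adjusted p from 0.463 to 1).

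Upstream sequence is shown for 5 of the genes with large or fully separated differences, and for Acsl3, which starts close to Utp14b. Each run is the 250 bases before the RefSeq start, in GRCm38.p6, 5′ to 3′ on the strand of the gene, and capitals mark the TATA box TATAAA, the CAAT box, CCAAT and, as the GC box, GGGCGG, each searched on both strands; adjoining motifs run together. Farp2 and Stk25 are next to each other in gene order and differed in opposite directions.
Glrp1: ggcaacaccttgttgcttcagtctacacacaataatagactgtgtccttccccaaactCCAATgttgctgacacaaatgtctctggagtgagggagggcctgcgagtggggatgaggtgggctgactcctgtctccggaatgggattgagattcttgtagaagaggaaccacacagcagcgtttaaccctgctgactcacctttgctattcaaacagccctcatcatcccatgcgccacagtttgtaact
Utp14b: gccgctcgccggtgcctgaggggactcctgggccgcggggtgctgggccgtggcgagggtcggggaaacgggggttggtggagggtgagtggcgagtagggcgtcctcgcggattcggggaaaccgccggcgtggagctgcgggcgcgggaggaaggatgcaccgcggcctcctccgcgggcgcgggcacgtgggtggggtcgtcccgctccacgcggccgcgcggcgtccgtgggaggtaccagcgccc
Acsl3: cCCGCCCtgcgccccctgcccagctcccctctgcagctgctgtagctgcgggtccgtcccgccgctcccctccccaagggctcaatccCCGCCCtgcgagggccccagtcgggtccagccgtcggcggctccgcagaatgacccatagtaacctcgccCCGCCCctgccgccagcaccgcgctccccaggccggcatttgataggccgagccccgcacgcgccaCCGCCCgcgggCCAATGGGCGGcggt
Farp2: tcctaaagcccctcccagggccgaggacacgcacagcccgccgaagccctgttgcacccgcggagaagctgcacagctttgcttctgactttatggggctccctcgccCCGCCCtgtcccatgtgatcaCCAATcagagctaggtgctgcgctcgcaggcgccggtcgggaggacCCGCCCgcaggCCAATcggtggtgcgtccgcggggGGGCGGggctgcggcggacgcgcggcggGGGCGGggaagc
Stk25: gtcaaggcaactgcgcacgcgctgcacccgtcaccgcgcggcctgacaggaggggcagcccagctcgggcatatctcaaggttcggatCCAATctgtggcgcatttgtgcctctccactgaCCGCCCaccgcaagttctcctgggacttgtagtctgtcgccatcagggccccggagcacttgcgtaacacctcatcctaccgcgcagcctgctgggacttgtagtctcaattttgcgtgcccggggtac
Pam: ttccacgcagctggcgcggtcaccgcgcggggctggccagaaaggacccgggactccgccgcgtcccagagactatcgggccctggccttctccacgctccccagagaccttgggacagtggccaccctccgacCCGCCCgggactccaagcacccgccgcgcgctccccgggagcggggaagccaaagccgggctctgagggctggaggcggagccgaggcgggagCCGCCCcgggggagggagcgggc
The runs lie at chr1:88510067-88510316 (minus strand) for Glrp1, chr1:78658190-78658439 (plus strand) for Utp14b, chr1:78657575-78657824 (plus strand) for Acsl3, chr1:93511854-93512103 (plus strand) for Farp2, chr1:93635728-93635977 (minus strand) for Stk25 and chr1:98095647-98095896 (minus strand) for Pam. No run holds TATAAA, which 12.4% of the 32851 upstream runs of this length in the table hold. CCAAT occurs in Glrp1, Acsl3, Farp2 and Stk25, and in 33.8% of all runs. GGGCGG occurs 5 times in Acsl3, 4 times in Farp2, 2 times in Pam and 1 time in Stk25, and in 32.7% of all runs. The Glrp1 run has a GC content of 50.4% with 4 CpG, whereas the other 5 range from 62.4% in Stk25 to 77.2% in Utp14b. Of the 60 genes, 56 have an entry in the table.

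Of the 7 genes of the secretory pathway and the cell surface, Glrp1 and Pam had an unadjusted p under 0.05, beside 5.5% of all genes tested. Glrp1 encodes a short protein rich in glutamine. Its levels were -4.75, -3.98 and -4.47 in wild type on vehicle and -4.76, -4.34 and -4.74 in wild type on IIAEK. In the knockout they were -5.83, -6.97 and -6.73 on vehicle and -6.70, -7.03 and -7.48 on IIAEK. All 6 knockout arrays lay below all 6 wild-type arrays. All 6 were also not well above background, so that Glrp1 was at least 1.30-fold lower in the knockout, a bound that was not tested. The limma adjusted p of 0.00978 belongs to the measured difference of -2.29. The gene entered the test only through wild type, where it was dim. The difference was -1.88 within slide 1, -2.73 within slide 2 and -2.30 when slide was a block (adjusted p = 0.0489). With normexp background correction and quantile normalization together, on the median spot signal with an offset of 50, the measured difference was -0.38 and did not pass (adjusted p = 0.134). The call was also absent with the replicate block (adjusted p = 0.0504), in slide 1 alone (adjusted p = 0.34), and without wild-type IIAEK replicate 2, knockout vehicle replicate 3 or knockout IIAEK replicate 2. Over arrays left out in turn, the measured difference stayed between -2.46 and -2.17.

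Pam encodes peptidylglycine alpha-amidating monooxygenase, which amidates the ends of peptide hormones. Its brightest probe read -2.95, -2.54 and -1.05 in wild type on vehicle, -2.69, -2.78 and -2.73 in wild type on IIAEK, -0.88, -0.06 and -0.09 in the knockout on vehicle and -0.05, -0.26 and 0.13 in the knockout on IIAEK. The groups did not overlap, although wild-type vehicle replicate 3 and knockout vehicle replicate 1 came close to each other. The difference of 2.25 ± 0.28 (SE), 4.77-fold, did not pass (limma adjusted p = 0.0573). It passed with median scaling (adjusted p = 0.0235), with normexp and quantile normalization (1.58, adjusted p = 0.0472), with array weights (adjusted p = 0.00957) and with the filter for signal on all 12 arrays (adjusted p = 0.0487). Without wild-type vehicle replicate 3 it was 2.54 and passed (adjusted p = 0.000299). Within slides it was 2.51 and 2.29, and 2.40 when slide was a block (adjusted p = 0.0489). A second Pam probe to the same accession, dimmer but above background on all arrays, showed 0.14 ± 0.19 with overlapping groups. With the mean of both probes the difference was 1.20 (adjusted p = 0.0934). Scg2, which encodes the granule protein secretogranin II, differed by -0.15 ± 0.11, and summed levels of 6 enteroendocrine markers ranged from 105 to 131 in wild type and from 101 to 133 in the knockout. Itm2c, Dner, Gpc1 and B3gnt7 had adjusted p-values from 0.951 to 1.

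**Figure D2:**
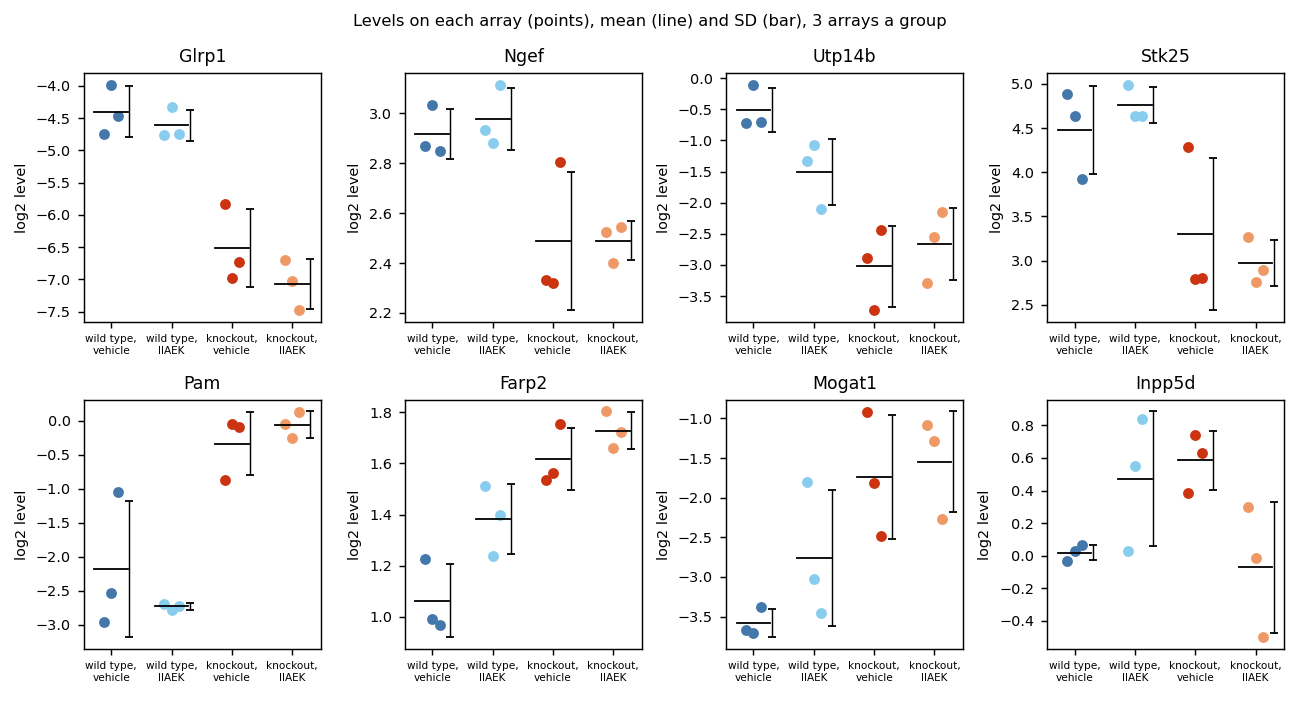
Level on each of the 3 arrays of a group (points; log2, with 0 at the 75th percentile), group mean (line) and SD (bar) for 8 of the 60 genes, each on its own axis. Knockout arrays of Glrp1, Ngef and Utp14b all lie below the wild-type arrays and those of Pam and Farp2 all lie above, while Stk25, Mogat1 and Inpp5d overlap.

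Among the 9 genes of translation and RNA, 2 had an unadjusted p under 0.05, beside 5.5% of all genes tested. Both were lower in the knockout, and none passed. Utp14b is a retrogene copy of Utp14a, which acts in ribosome assembly. It read -0.72, -0.10 and -0.71 in wild type on vehicle and -1.34, -1.08 and -2.10 in wild type on IIAEK. In the knockout it read -2.90, -3.73 and -2.44 on vehicle and -3.29, -2.55 and -2.16 on IIAEK. The highest knockout array lay just below the lowest wild-type array, by less than the spread within either group. The difference was -1.83 ± 0.27 (SE) with both treatments averaged, 3.56-fold lower (limma adjusted p = 0.081), with -2.51 on vehicle and -1.16 on IIAEK. It was -2.08 within slide 1 and -1.30 within slide 2. The parent gene Utp14a differed by 0.12 ± 0.10 (adjusted p = 0.975). Acsl3, which shares its start region, makes an enzyme that activates long-chain fatty acids. Its difference was -0.45 ± 0.21 on the brightest probe (adjusted p = 0.909) and -0.47 on the second. Farsb, Mrpl44, Agfg1 and Hdlbp, an RNA-binding protein of the vigilin type, had differences between -0.20 and 0.21.

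Of the 11 genes of signalling, Stk25 differed most. It encodes a kinase of the germinal centre family linked to the Golgi. Its levels were 4.88, 4.63 and 3.92 in wild type on vehicle, 4.99, 4.64 and 4.64 in wild type on IIAEK, 4.29, 2.79 and 2.81 in the knockout on vehicle and 3.26, 2.76 and 2.90 in the knockout on IIAEK. Only knockout vehicle replicate 1 and wild-type vehicle replicate 3 crossed. The difference was -1.48 ± 0.26 (SE), 2.80-fold lower in the knockout (limma adjusted p = 0.208), and a second probe gave -1.60 ± 0.28. The difference was alike within slides, at -1.66 and -1.61. Without knockout vehicle replicate 1 it was -1.73 and passed (adjusted p = 0.0156). The other 10 genes of this role, among them Irs1, an adaptor of the insulin receptor, Cab39, a partner of the kinase LKB1, and Ramp1, a subunit of the CGRP receptor, had no unadjusted p under 0.05 with both treatments averaged. On vehicle alone Cab39 (-0.49, unadjusted p = 0.00666), Ramp1 (-0.61, unadjusted p = 0.0212) and Kcne4 (-0.99, unadjusted p = 0.0377) did, in the limma fit, and none passed after adjustment. Over all genes tested, 11.3% had an unadjusted p under 0.05 on vehicle and 5.5% with both treatments averaged. A dimmer Ramp1 probe went the other way on vehicle, at 0.60 (unadjusted p = 0.0122, limma with every probe kept apart), and another showed -0.21. Kcne4 entered the test only through wild type on vehicle. It was above background on 1 of 3 knockout arrays on vehicle, so its difference rests on signals near background.

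Membrane traffic, autophagy and small GTPases made the other large role. On their brightest probes 10 of 11 genes lay below 0, with a median of -0.12, and none passed. Wdfy1 and Ap1s3 lay near 0 there, at -0.004 and -0.017. Further probes showed 0.41 and -0.31 in Wdfy1 and 0.36 in Ap1s3. Further tested probes of Arl4c, Agap1, Dock10 and Mlph lay below 0. Farp2, an exchange factor for Rac and Cdc42, was the gene above 0 on its brightest probe. It read 1.23, 0.99 and 0.97 in wild type on vehicle, 1.51, 1.24 and 1.40 in wild type on IIAEK, 1.54, 1.56 and 1.76 in the knockout on vehicle and 1.80, 1.66 and 1.72 in the knockout on IIAEK. All knockout arrays lay above all wild-type arrays, by a small margin. The difference was 0.45 ± 0.10 (SE), 1.37-fold (limma adjusted p = 0.318), with 0.27 within slide 1 and 0.59 within slide 2. Ngef, which acts in signalling below Eph receptors, ran the other way. Its wild-type levels were 2.87, 3.03 and 2.85 on vehicle and 2.93, 2.88 and 3.12 on IIAEK, and its knockout levels were 2.33, 2.32 and 2.81 on vehicle and 2.52, 2.40 and 2.54 on IIAEK. The groups did not overlap, and knockout vehicle replicate 3 came closest to wild type. The difference was -0.46 ± 0.11 (adjusted p = 0.463). Sh3bp4, which acts in endocytosis, differed by -0.66 ± 0.19 (adjusted p = 0.607), with wild-type IIAEK replicate 3 at -0.41 and all other arrays between -2.31 and -1.38.

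Lipid handling held opposite differences. Mogat1, a monoacylglycerol acyltransferase of triglyceride synthesis, read -3.66, -3.71 and -3.38 in wild type on vehicle, -1.80, -3.03 and -3.46 in wild type on IIAEK, -0.92, -1.82 and -2.49 in the knockout on vehicle and -1.08, -1.29 and -2.26 in the knockout on IIAEK. Wild-type IIAEK replicate 1 lay within the knockout range. The difference was 1.53 ± 0.33 (SE), 2.89-fold (limma adjusted p = 0.358), and 1.46 and 1.02 within slides. A second probe was well above background on 1 of 12 arrays only, so it gave no test. Sgpp2, a phosphatase of sphingosine phosphate, differed by -0.53 ± 0.19 (adjusted p = 0.787). Dgkd, a diacylglycerol kinase, differed by -0.06 ± 0.16. Inpp5d, the lipid phosphatase SHIP1 of blood cells, averaged 0.01 ± 0.16. That mean covered 0.57 on vehicle and -0.55 on IIAEK, and neither passed (adjusted p = 0.434 and 0.619). Summed levels of 8 B and plasma cell markers ranged from 187 to 330 in wild type and from 177 to 340 in the knockout, most of it from Jchain. The other 7 of these markers were higher in the knockout by 1.11 to 3.96 on vehicle, and on IIAEK had differences of -3.81 to -0.50, the same signs as Inpp5d. Their part in the Inpp5d values was not tested.

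The remaining roles held few differences. None of the 7 genes of the ubiquitin, proteasome and COP9 systems had an unadjusted p under 0.05, beside 5.5% of all genes tested. Their differences ran from -0.07 in Cops8 to 0.11 in Trip12, a ubiquitin ligase. The 3 genes for proteases and their inhibitors, Rhbdd1, Capn10 and Serpine2, lay between 0.06 and 0.15. Of the 3 genes of mitochondria and cell death, Efhd1 differed by -1.67 on vehicle and 0.24 on IIAEK with levels near background; its average of -0.71 became -0.39 when knockout vehicle replicate 3 was left out, and -1.11 when wild-type IIAEK replicate 3 was. The other members of this role were Bok, of the BCL2 family, at -0.43 ± 0.25 (SE), and Mff, a mitochondrial fission factor, at -0.03 ± 0.14. Hdac4, Hes6, Lrrfip1 and Armc9 had differences between -0.17 and 0.04 on their brightest probes. Of 15 marker lists for cells of the gut wall and nearby tissue, several varied widely between arrays. Summed levels of exocrine pancreas markers were 1.27 to 2018 in wild type and 0.645 to 103 in the knockout. Those of adipocyte markers ran from 0.300 to 14.7 over the 12 arrays, both ends in the knockout, with Adipoq and Cfd higher in the knockout by 3.27 and 2.99 on vehicle and with differences of -0.92 and -0.65 on IIAEK. The part of these lists in the results was not tested. Pou2f3, a tuft cell marker, and Plin1, of adipocytes, were not above background on all 3 arrays of any group, whereas all 9 enterocyte markers were detected.

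The fit with every probe kept apart gave a view that the brightest probe hides. Of the 60 genes, 33 had more than 1 probe, and Glrp1, Utp14b, Ngef and Farp2 were not among the 33. In all, 40 further probes of 30 genes could be tested. Of these 40, 34 lay within 0.5 on the log2 scale of the brightest probe of the gene, and 3 differed from it by more than 1. In this fit 3 probes of the 60 genes passed an adjusted p of 0.05 with both treatments averaged, beside 0.0232% of all 34410 probes. They were the Glrp1 probe (limma adjusted p = 0.00349), the brightest Pam probe (adjusted p = 0.039) and a dim probe of Armc9, which encodes a protein of the ciliary base. The Armc9 probe was higher in the knockout by 1.84 ± 0.15 (SE; adjusted p = 0.00105), at -5.29 to -4.54 in wild type and -3.64 to -2.29 in the knockout. It was above background on 4 of 6 wild-type and 6 of 6 knockout arrays. It also passed on vehicle alone, where it rose by 2.38 (adjusted p = 0.00496) and was the only call, 0.00291% of probes. On IIAEK alone its difference was 1.30 (adjusted p = 0.227), and none of the probes of the 60 genes passed there, beside 0.00291% of all probes. This probe targets another RefSeq accession of Armc9 than the other 2 probes, which showed -0.17 and -0.43. Dim probes of Dock10 and Asb1 showed -1.18 (adjusted p = 0.0741) and -1.04 (adjusted p = 0.151), beside -0.27 and -0.02 on the brightest probes, to the same accessions. Which probe of such a gene follows its transcript was not tested.

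**Figure D3:**
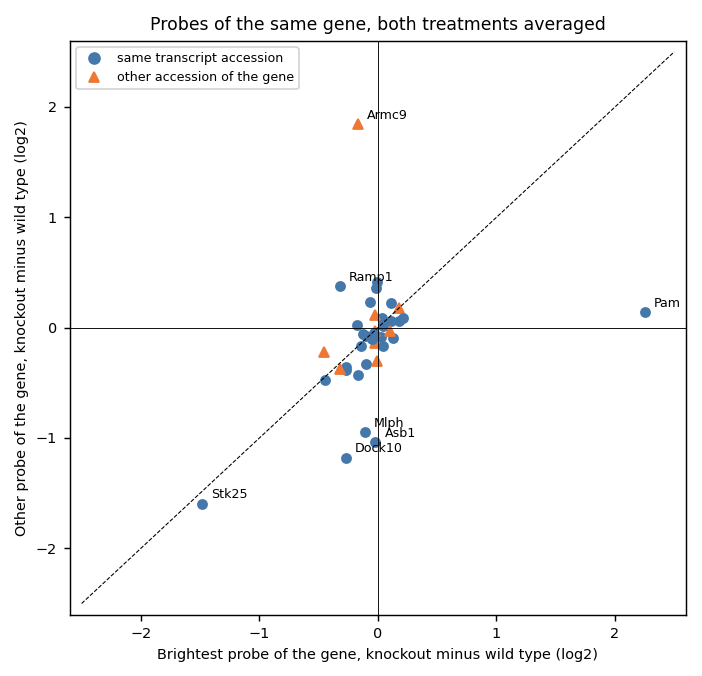
Knockout minus wild type (log2, both treatments averaged) of 40 further probes of 30 genes against the brightest probe of the same gene; circles share its RefSeq accession, triangles do not, and the dashed line marks equal differences. Stk25 and most genes lie near the line, whereas the probes of Pam, Armc9 and Asb1 differ by more than 1.

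Differences on vehicle and on IIAEK came from separate arrays and can be set side by side. Over the 60 genes Pearson's r between them was 0.69 and Spearman's rank correlation 0.29, and 34 of 60 had the same sign. In the 55 genes whose wild-type and knockout arrays overlap, r was 0.40 and the rank correlation 0.11. Of these 55, 29 (52.7%) had the same sign. Over all 27565 genes r was -0.22, and 37.6% had the same sign. These values describe genes, which are not independent replicates, and each treatment used arrays of both slides.

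**Figure D4:**
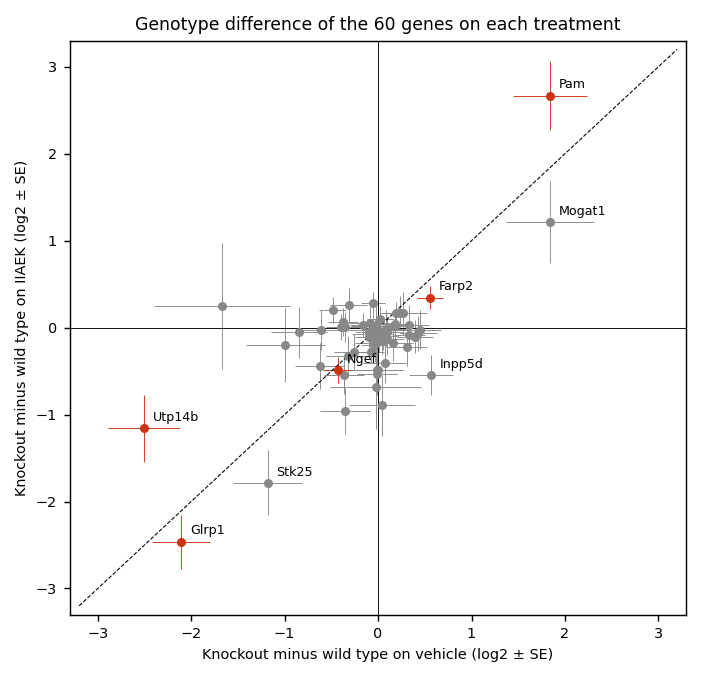
Knockout minus wild type on IIAEK against the same difference on vehicle for the 60 genes (log2, limma SE as bars; dashed line, equal differences; red, the 5 genes with no overlap). Glrp1, Utp14b, Stk25, Pam and Mogat1 lie far from the origin in the same direction on both axes, while Inpp5d has opposite signs, 0.57 and -0.55.

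IIAEK changed none of the 60 genes past an adjusted p of 0.05 in either genotype, and the interaction of genotype and IIAEK called none; over all genes these fits also called none (0%). At an unadjusted p of 0.05 the limma fit called 7 of 60 genes in wild type (11.7%), 5 higher and 2 lower, beside 12.8% of all genes. It called 1 in the knockout (1.67%), beside 4.63% of all genes, and 3 in the interaction (5%), beside 15.2%. Cab39 read -0.40 after IIAEK in wild type and 0.29 in the knockout, an interaction of 0.69 (unadjusted p = 0.00644). Inpp5d read 0.45 and -0.66, an interaction of -1.11 (unadjusted p = 0.00584). Utp14b read -0.99 and 0.36, an interaction of 1.35 (unadjusted p = 0.0295). Each share lay below that of all genes.

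The 60 genes were set beside the rest of the genome. Among the 140 other genes tested in the window, 17 (12.1%) had an unadjusted p under 0.05, and in none did the 6 knockout arrays stand apart from the 6 wild-type arrays. On the rest of chromosome 1 it was 61 of 709 genes (8.6%), with no overlap in 5 of them tested (0.706%), and on other chromosomes 652 of 14898 (4.38%), with no overlap in 42 (0.282%). The median size of the difference was 0.17 in the 60 genes, 0.113 in the other window genes, 0.108 on the rest of chromosome 1 and 0.0981 on other chromosomes. Outside the 60 genes no window gene passed: Cdh20, a cadherin, differed by 2.21, Cxcr2, a chemokine receptor, by 0.62, and Gpr55, a lipid receptor, by -0.77 (adjusted p = 0.459, 0.508 and 0.545). Ordered by p over all genes with both treatments averaged, Glrp1 came 1st, Pam 2nd and Utp14b 8th; the place of Glrp1 rests on knockout signals below background. Genes outside the window on chromosome 1, Pm20d1 and Ddx59, came 3rd and 4th.

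**Figure D5:**
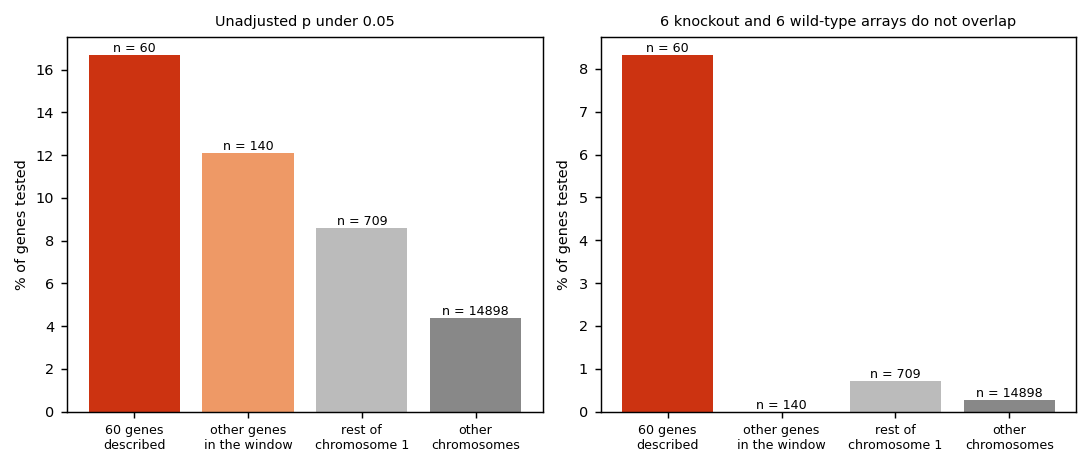
Share of genes tested (%) with an unadjusted p under 0.05 in the averaged genotype difference (left) and with no overlap between 6 knockout and 6 wild-type arrays (right), in the 60 genes, the other window genes, the rest of chromosome 1 and other chromosomes; n is the number tested. The left bars fall from 16.7% to 4.38%, and the right bars are 8.33%, 0%, 0.706% and 0.282%; the 60 genes were chosen with earlier results known.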

How the data were processed

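Total RNA of 12 jejunum samples was labelled with Cy3 and hybridised to 1-colour Agilent arrays, per the labels. Per the file headers, Feature Extraction 10.7.3.1 made the deposited processed signal, an intensity corrected for background within the array. The table of values deposited by the authors is in log2 units and matched log2 signals scaled to the 75th percentile and centred on each probe (r of at least 0.99999 per array over probes); this scaling was read from the values, and the column medians were -0.080 to 0.149.

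Here log2 processed signals were scaled to the 75th percentile over probes other than controls, and spots of a probe were averaged. Accessions were named through a RefSeq table (32994 of 56605 probes). It gave names, gene order and the base positions that placed other genes within or outside 20 Mb of Akp3. Its assembly, GRCm38.p6, differs from that of the array's annotation, mm9. The brightest probe stood for a gene. Genes well above background on all 3 arrays of a group were tested (27565, each probe without a gene name counted as a gene). All 12 arrays in 4 groups were fitted with limma 3.58.1 in R 4.3.3, two-sided, with Benjamini-Hochberg adjustment over all genes. Where a group lay below background throughout, the fold is a bound from the lowest signal well above background on each array. It is not a strict bound where an array of the other group also lay below background, as for Akp3 on vehicle. The code was tested on simulated data. The genes, roles and marker lists were chosen with earlier results of these data known.

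Genes were named by a rule: those past the threshold, the 15 smallest p-values in the averaged difference, the 4 nearest genes on each side, the 3 smallest p-values for IIAEK and its interaction, the 3 brightest, and those with no overlap. The other genes named in the text illustrate their roles or their further probes and were chosen after their values were seen, as were the 3 window genes and the promoters shown. Replicate numbers were not used as pairs in the main fit. Same-numbered arrays of different groups had correlations of -0.25 to 0.35, with a mean of 0.06, beside a mean of -0.03 for other numbers. These values cannot show whether samples were paired, and all arrays of replicate 1 lay on slide 1 and all of replicate 3 on slide 2. Alternatives were normexp (on the median spot signal, since no mean signal is in the files used here) with quantile normalization, median scaling, the deposited table, other filters, the mean of all probes, slide and replicate blocks, array weights, each slide alone, and each array left out.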

Additional observations from a re-analysis of the deposited data

How the results depend on the processing

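Counts past an adjusted p of 0.05 are of 60 genes in limma fits. For the averaged genotype difference, 1 gene was called, and the count was 2 with median scaling, 2 with slide as a block (Glrp1 and Pam), 0 with the replicate block, 0 in slide 1 alone and 7 with array weights, which called 105 of all genes. With normexp and quantile normalization, and with signal required on all 12 arrays, the 1 gene called was Pam in place of Glrp1. Over all genes tested, 2 were called with median scaling and 2 with normexp and quantile normalization, beside 1 in the main fit. Counts over all genes for the slide block and for arrays left out are not given here. The counts there do not show whether the 60 genes stand out. Array weights also called 13 on vehicle (1902 of all genes) and 3 in the interaction (1910 of all genes). Leaving out each array in turn gave 0 to 3 genes for the averaged difference, 0 to 1 on vehicle and 0 to 1 on IIAEK. The 3 were Glrp1, Stk25 and Pam, without knockout vehicle replicate 1; without wild-type vehicle replicate 3 they were Glrp1 and Pam, and Pam passed on each treatment. The cause was not tested. The median of the 60 genes moved to -0.24 on IIAEK and -0.16 averaged in slide 2 alone, and on IIAEK from -0.20 to -0.036 over arrays left out. The signs of small differences turned: Inpp5d was -0.014 with median scaling and -0.31 in slide 2 alone, Cops7b was 0.061 with array weights, and Dock10 was 0.039 in slide 1 alone. Over arrays left out, Inpp5d ran from -0.10 to 0.12 and Cops7b from -0.089 to 0.065. Without a filter on dim probes the median over all genes shifted to 0.13 on IIAEK and 0.10 on vehicle. The replicate block changed no other count. Glrp1, Kcne4 and Efhd1 could not be tested with a filter for signal on all 12 arrays. Signal near background limits Glrp1, Kcne4, Efhd1, B3gnt7 and Gpr35.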
